A study of Mus musculus with 38 samples.

Results

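The complement system was followed here through 9 mouse genes, chosen by name and looked up by Ensembl identifier among the 55487 genes of 3 tables of read counts. They are the C1q chains C1qa, C1qb and C1qc, the component genes C4b, C3, Cfb and Cfp (properdin), and the receptor genes C3ar1 and C5ar1. All 9 were found in each table. A further 36 complement genes served as their surroundings.

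Complement is a cascade of secreted proteins that marks surfaces for uptake and calls in immune cells. In the classical pathway C1q binds a target and starts cleavage of C4 and then of C3; in the alternative pathway factor B and properdin form and hold the enzyme that cleaves C3. The small fragments C3a and C5a act on the receptors C3ar1 and C5ar1 of myeloid cells. In the brain, microglia and infiltrating macrophages are known as main makers of C1q, and astrocytes make C3 and C4 as well.

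RNA was sequenced from 38 libraries in 18 groups of BV2 cells, an immortalised microglial line, of GL261 cells, a mouse glioma line that stably carries pEGFP-N1, and of primary bone marrow-derived macrophages (BMDM) from mice labelled wild type (WT). Incubation lasted 16 h, either in normoxia (21% oxygen) or in hypoxia (under 0.1%). The libraries were grouped here into 2 experiments. The first joins 2 tables, 1 of BV2 and GL261 and 1 of BMDM, so table and cell type cannot be told apart between BV2 and BMDM there. It had 3 designs: each cell type grew alone, or BV2 or BMDM were seeded onto GL261 cells. There were 2 GL261 cells per BV2 cell or 1 per BMDM, and RNA came from either partner (for BMDM, only the macrophage side). In the second, BV2 cells or BMDM received dimethyl sulfoxide (DMSO), the solvent control, in normoxia or in hypoxia, or 10 nM panobinostat, a histone deacetylase inhibitor, in hypoxia. Groups had 2 libraries, and those of co-cultured BMDM had 3. Serum was 2% for BV2 and 10% for BMDM in the co-cultures and in the second experiment, and is not stated apart for the monocultures, so serum and cell type cannot be told apart between BV2 and BMDM. All cells were fixed on ice in 3% glyoxal, and how the partners were separated is not given in the sources used here. Any difference in serum or handling between co-cultures and monocultures cannot be told apart from an effect of the partner cells. BV2 and GL261 are each a single line, and for BMDM nothing states that replicates came from separate mice or cultures, so p-values there measure the spread between these libraries, which may be technical.

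Levels are given as CPM, read counts divided by library size, scaled by edgeR's trimmed-mean (TMM) factors, a change is a log2 fold change with its standard error (SE), and a gene was called changed at an adjusted p under 0.05 (edgeR quasi-likelihood test, Benjamini-Hochberg over all genes tested). Libraries held 9634700 to 27238900 counts, and 3 counts, the floor for a library without a read, equal 0.114 to 0.332 CPM. Summed over 10 myeloid markers, this TMM-scaled CPM ran from 1444 to 3205 in BV2. It ran from 5705 to 8780 in BMDM of the first experiment, against 4.09 to 5.19 in GL261 monocultures. GL261 held 1599 to 2143 CPM of 8 glioma and glial markers. The BMDM libraries of the second experiment stood apart: 10 stromal genes of the fibroblast type, listed after the data were seen, summed to 5740 to 31830 CPM there against 125.5 to 949 CPM in the first. Myeloid markers fell to 3007 and 4657 CPM in its hypoxic DMSO libraries and to 628.4 and 1778 CPM with panobinostat. In bulk RNA, fewer cells of a type and less RNA per cell cannot be told apart.

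The 3 C1q genes lie within 18.68 kb of chromosome 4 (mm10, minus strand): C1qb at chr4:136880129-136886187, C1qc at chr4:136889804-136893065 and C1qa at chr4:136895917-136898803. C3 lies at chr17:57203970-57228136, C4b at chr17:34728380-34743882 and Cfb at chr17:34856374-34862518. C3ar1 lies at chr6:122847138-122856161, C5ar1 at chr7:16246743-16259540 and Cfp at chrX:20925454-20931555. All are protein-coding genes on the minus strand in GENCODE M21. RefSeq promoters (GRCm38.p6, the build mm10) matched 6 of the 9: C1qb, C1qc, C3, C3ar1, C5ar1 and Cfp. Printed 5′ to 3′ are the 250 bases before the start of 3 of them, chosen because C1qb and C3 rose and Cfp fell in BV2 cells beside glioma cells (below), with motif matches in capitals.
C1qb (chr4:136886201-136886450, minus strand): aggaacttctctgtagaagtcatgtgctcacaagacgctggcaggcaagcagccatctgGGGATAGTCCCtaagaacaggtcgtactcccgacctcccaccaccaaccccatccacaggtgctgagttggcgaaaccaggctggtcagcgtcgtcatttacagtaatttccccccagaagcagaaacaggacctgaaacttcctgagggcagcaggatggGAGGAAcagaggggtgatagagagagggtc
C3 (chr17:57228137-57228386, minus strand): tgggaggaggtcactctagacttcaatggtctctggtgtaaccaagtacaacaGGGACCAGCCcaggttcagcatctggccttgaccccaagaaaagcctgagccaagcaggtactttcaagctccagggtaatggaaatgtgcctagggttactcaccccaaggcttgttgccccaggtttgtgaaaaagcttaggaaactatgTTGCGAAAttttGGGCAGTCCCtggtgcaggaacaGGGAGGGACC
Cfp (chrX:20931556-20931805, minus strand): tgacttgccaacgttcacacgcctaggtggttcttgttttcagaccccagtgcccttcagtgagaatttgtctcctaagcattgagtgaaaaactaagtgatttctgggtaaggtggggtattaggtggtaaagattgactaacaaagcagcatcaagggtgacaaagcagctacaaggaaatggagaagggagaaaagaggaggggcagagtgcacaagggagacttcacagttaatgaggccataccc

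Both strands were searched for 6 motifs, and the share of all 32851 RefSeq promoter windows of 250 bases that hold each is given. The core bound by the myeloid factor PU.1, GAGGAA (23.3% of windows), occurred in C1qb and, on the other strand, in C1qc. A kappaB form, GGGA and CC with 4 bases between (17.6%), matched once on each strand at overlapping bases in C1qb, once in C1qc and at 3 places in C3. A C/EBP form, TTGCNNAA (9.56%), matched once in C3. The hypoxia response element core ACGTG (16.6%), the interferon-stimulated response element, as GAAA repeated after 2 bases (2.98%), and the gamma-activated site TTCNNNGAA (7.02%) matched in none of the 6. C3ar1, C5ar1 and Cfp held no match to any of the 6 motifs. A match is a run of letters and no measured site, and the absence of a match is limited to these letters and windows.

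The cell types differed in the levels of these genes, with BV2 and BMDM monocultures in tables that were normalised separately. BMDM held high C1q: in normoxic monoculture C1qa stood at 1069 and 739.9 CPM, C1qb at 1881 and 1409 CPM and C1qc at 2039 and 1539 CPM. In normoxic BV2 monocultures the same genes stood at 0.340 and 0.223, at 4.34 and 3.48, and at 3.83 and 5.21 CPM. In GL261 monocultures C1qa, C1qb, C1qc, C3ar1, C5ar1 and Cfb had 0 counts in all libraries. The plot of CPM by library shows every member but Cfb. Scaled to exon length, the order of mean levels in normoxic BMDM monocultures was C1qb (1512 CPM per kb), C1qc (926), C1qa (869.6), Cfp (329), C5ar1 (246), C3ar1 (109), C3 (24.2) and C4b (0.0930). In normoxic BV2 monocultures it was Cfp (50.2 CPM per kb), C3ar1 (13.3), C3 (9.16), C1qb (3.59), C1qc (2.34), C4b (0.280), C1qa (0.271) and C5ar1 (0.195). GL261 cells led with Cfp (10.7 CPM per kb), followed by C4b (1.12) and C3 (0.0713). In BMDM the neighbours C1qc and C1qa did not differ beyond their spread over libraries, nor did C4b, C1qa and C5ar1 in BV2. In these BV2 libraries C1qa had 8 and 5 counts and C5ar1 10 and 13.

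**Figure D1:**
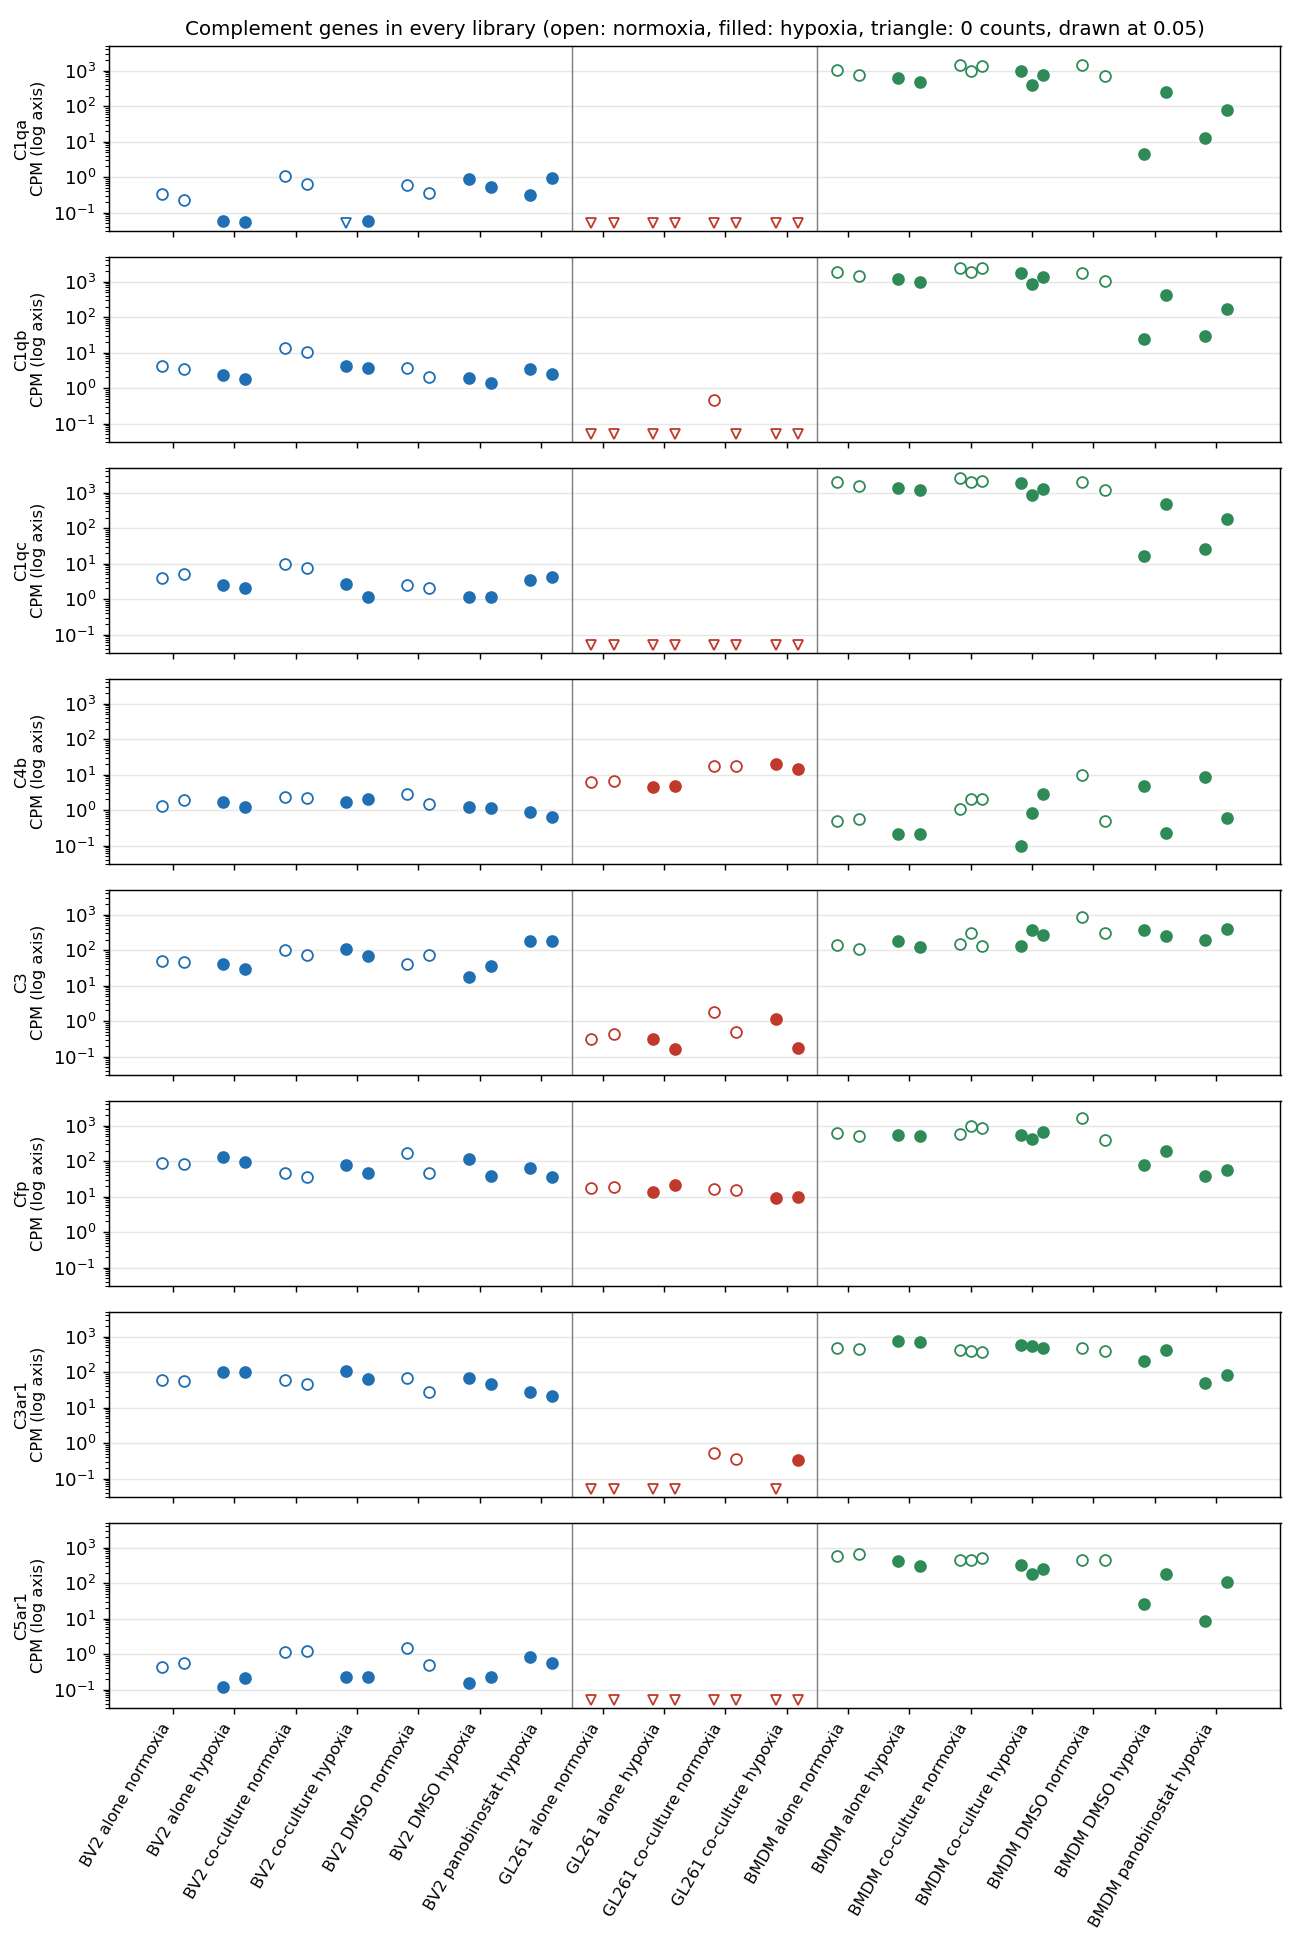
CPM of 8 complement genes (log axis, TMM-scaled within each cell type and table) in each of the 38 libraries, by group; each symbol is 1 library, open for normoxia and filled for hypoxia, and open triangles at the foot are libraries with 0 counts. C1qa, C1qb, C1qc and C5ar1 stand highest in BMDM, with libraries as low as 24.3 CPM of C1qb among the hypoxic BMDM given DMSO, and C4b in GL261 lies between 4.54 and 20.6 CPM.

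BV2 was set directly against GL261 in a joint fit of normoxic monocultures, where 8 of the 9 members passed the filter on low counts and all 8 were called, against 73.2% of all 16882 genes tested (33.8% higher and 39.4% lower in BV2). Higher in BV2 were 7 of them. C1qa, C1qb, C1qc, C3ar1 and C5ar1 had 0 counts in GL261 monocultures and passed the filter through BV2 libraries alone. Their direction was thus fixed by the filter, and the number of calls is no result about these genes. C3ar1, the receptor for C3a, averaged 57.4 ± 1.69 CPM (SD, n = 2) in BV2, at least 388-fold above the floor of 3 counts per library in GL261. The bounds for C1qc, C1qb, C5ar1 and C1qa were at least 30.6-fold, 26.4-fold, 3.4-fold and 1.9-fold higher. Against 6 and 8 counts in GL261, C3 was higher in BV2 by 7.10 on the log2 scale (SE 0.44, edgeR adjusted p 4.88e-11). Properdin, Cfp, the stabiliser of the alternative pathway enzyme, was at 92.0 and 82.4 CPM in BV2 and at 18.1 and 19.0 CPM in GL261. C4b, the classical pathway substrate, went the other way: 1.28 and 1.92 CPM in BV2 against 6.24 and 6.51 CPM in GL261, a log2 difference of -1.88 (SE 0.26, adjusted p 2.71e-06).

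BV2 and BMDM share a fit only in the second experiment, in normoxia with DMSO. There 7 of 8 members were called, all lower in BV2, against 44.2% of all 15955 genes tested (17.1% higher, 27.1% lower). C1qa stood at 0.596 and 0.348 CPM in BV2 and at 1490.1 and 693 CPM in BMDM, and C5ar1, the C5a receptor, at 1.49 and 0.487 against 458 and 445 CPM. For C3ar1 the values were 68.6 and 28.6 CPM in BV2 and 471 and 401 CPM in BMDM, a log2 difference of -3.34 (SE 0.50, edgeR adjusted p 5.32e-04). C3, at 41.4 and 72.7 CPM, was 11.8-fold lower in BV2. These BMDM libraries carried 31680 and 31830 CPM of stromal markers, and the part of those cells in the C3 and Cfp levels was not tested. Without normoxic BMDM library 1 the log2 difference of Cfp was -2.04 (adjusted p 0.0960) and without normoxic BV2 library 2 it was -2.72 (0.0907), in place of -3.40 (0.0122). C4b was not called (log2 difference -1.39, adjusted p 0.448), and passed with the replicate block (-2.62, 0.00110) and without the filter (0.0490).

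The 3 chains of C1q are needed together for the secreted protein. In the first-experiment BMDM the ratio of C1qc to C1qb counts stayed between 0.895 and 1.22 over 10 libraries, and that of C1qa to C1qb between 0.458 and 0.591. In BV2 of the first experiment C1qc per C1qb ran from 0.308 to 1.5, and C1qa per C1qb from 0 to 0.0800, on 33 to 200 counts of C1qb per library. The C1qa share was thus lower in each of these BV2 libraries than in each of these BMDM libraries, which come from another table. In the second experiment it ran from 0.0952 to 0.458 in BV2, on 19 to 48 counts of C1qb, and from 0.185 to 0.819 in BMDM, so that the ranges overlapped. Stromal markers summed to 25.9 to 48.1 CPM in these BV2 libraries against 3.95 to 4.77 CPM in BV2 monocultures of the first experiment, and their part in the ratio was not tested. Across the means of all 18 groups, log2(CPM + 1) of the genes most like the average of the 3 C1q genes were Cxcl14 (Pearson r 0.99), Cxcl16 (0.99) and Cx3cr1 (0.99), among 10785 genes compared. For C3 these were Arrdc4 (0.97), Anxa3 (0.97) and Tmem159 (0.97). The groups share cell types and tables, so these are descriptions of the pattern over cell types and carry no test.

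Hypoxia lowered C1qb and C1qc and raised C3ar1 in BV2 cells, and C5ar1 fell on low counts. In monoculture 4 of the 8 members tested were called, 1 higher and 3 lower, against 61.9% of all 14432 genes tested (30.9% higher, 31% lower), with a median log2 change of -0.67 over the 8 and 0.00 over all. C1qb went from 4.34 and 3.48 CPM in normoxia to 2.36 and 1.81 CPM in hypoxia, a change of -0.91 (SE 0.26, edgeR adjusted p 0.00575). C1qc, at 3.83 and 5.21 CPM and then 2.54 and 2.03 CPM, fell by 0.98 (SE 0.31, 0.0109). No hypoxic library of either gene reached the lower normoxic library. C3ar1 moved against them, from 58.6 and 56.2 to 98.3 and 98.8 CPM, a rise of 0.78 (SE 0.17, 9.48e-04) that passed in all 10 alternatives. The myeloid sum went from 2262 and 2237 to 3033 and 2882 CPM beside it, and C3ar1 as a percentage of that sum went from 2.59 and 2.51 to 3.24 and 3.43, without overlap. C5ar1 fell from 10 and 13 counts to 2 and 4 counts per library, a ratio of normoxia to hypoxia of 3.03 (95% exact interval 1.2 to 9.11, counting error only, edgeR adjusted p 0.0421). It passed the filter on low counts only through normoxic libraries, so the filter favoured a fall. C1qa had 8 and 5 counts against 1 and 1 (adjusted p 0.0559), and C3, C4b and Cfp were not called (changes of -0.43, -0.13 and 0.35).

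The C5ar1 call in BV2 monoculture was lost without each of its 4 libraries in turn (adjusted p 0.0726 to 0.248), with DESeq2 (0.201), with the replicate block (0.0517) and without the filter (0.0816). Without hypoxic library 2 the adjusted p of C1qb was 0.0708 and of C1qc 0.0869, without normoxic library 1 that of C1qb was 0.0518, and without normoxic library 2 that of C1qc was 0.0907. C3 and Cfp each passed in 4 of 10 alternatives: C3 without hypoxic library 1 (adjusted p 0.0127), with the replicate block (0.00641), without the filter (0.00637) and in a fit of only these groups (0.0228), and Cfp without hypoxic library 2 (0.0402), with the block (0.0458), without the filter (0.0155) and in a fit of only these groups (0.0358).

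In BV2 cells from co-culture 6 of 8 members were called in hypoxia, 2 higher and 4 lower, against 67.3% of all genes tested (35.2% higher, 32.1% lower), with a median of -0.95 over the 8 and 0.04 over all. C1qb fell from 13.8 and 10.3 CPM to 4.12 and 3.79 CPM, a change of -1.60 (SE 0.22, edgeR adjusted p 9.16e-06). C1qc fell from 9.61 and 7.58 to 2.62 and 1.17 CPM (-2.17, SE 0.31, 1.26e-05). C1qa went from 16 and 12 counts to 0 and 1 count, a ratio of normoxia to hypoxia of 31.9 with a 95% exact counting interval of 5.28 to 1305.0 (edgeR adjusted p 3.16e-04). C5ar1 fell from 17 and 23 counts to 4 and 4, a ratio of 5.70 (2.63 to 14.1; adjusted p 8.84e-04). For these 4 genes the normoxic and hypoxic libraries did not overlap, and each call held in every alternative in which the gene was tested. C1qa and C5ar1 passed the filter on low counts only through normoxic libraries, so the filter favoured a fall in both. They are 2 of the 4 lower members and enter the median, so the number of calls is no result about these 2 genes. C3ar1 rose from 59.5 and 47.4 to 107 and 65.7 CPM (0.70, SE 0.18, 0.00230) and Cfp from 45.7 and 35.0 to 80.8 and 45.3 CPM (0.65, SE 0.22, 0.0151), the latter with overlapping libraries. Both rises rested on hypoxic library 1: without it they were 0.22 (0.202) and 0.09 (0.693). The Cfp call was also lost without normoxic library 2 (0.47, 0.117) and with DESeq2 (0.120). C3, at 98.5 and 74.4 against 106 and 70.8 CPM, was not called (0.04, SE 0.19, 0.869).

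Whether the hypoxia effect differed between co-cultured and single BV2 cells was tested as an interaction. None of the 8 members passed with edgeR or DESeq2, against 2.19% of all genes tested (1.16% higher, 1.03% lower), and 1 had an unadjusted p under 0.05. C1qc came nearest, with a log2 difference of -1.18 (SE 0.44, adjusted p 0.151), which became -1.98 (0.0316) without hypoxic co-culture library 1 and -1.28 (0.0139) without the filter on low counts. The larger falls in co-culture are therefore side-by-side values only.

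The second experiment repeated the oxygen comparison in BV2 cells with DMSO, on 13294 genes of which 37.5% were called (17.2% higher, 20.2% lower). Called were 2 of 8 members, both lower, at a median of -0.81 over the 8 and -0.03 over all. C3 went from 41.4 and 72.7 to 18.1 and 35.3 CPM, a fall of 1.09 (SE 0.34, edgeR adjusted p 0.0287) without overlap. It was lost without hypoxic library 1 (-0.70, 0.164), without normoxic library 2 (-0.61, 0.223) and in a fit of only these groups (0.0525). C5ar1 had 20 and 7 counts and then 2 and 3 counts, a ratio of normoxia to hypoxia of 5.58 (95% exact interval 2.12 to 18.6; adjusted p 0.0417), lost with DESeq2 (0.136), without normoxic library 1 (0.325) and without either hypoxic library (0.195 and 0.108). No hypoxic library with DMSO reached the filter's minimum count of 10 for C5ar1. C1qb and C1qc were not called (-0.75 and -0.95, adjusted p 0.215 and 0.101). C1qa was not called either and did not fall as in co-culture. It had 8 and 5 counts in normoxia and 11 and 7 in hypoxia, with means of 0.472 and 0.694 CPM. Stromal markers summed to 25.9 to 48.0 CPM in these BV2 libraries, against 3.95 to 4.77 CPM in BV2 monocultures of the first experiment. Normoxic BMDM of the same table held C1qa at 1490 and 693 CPM. The part of BMDM reads in the low counts of C1qa, C1qb, C1qc and C5ar1 here was not tested. C3ar1 was also not called, with normoxic libraries at 68.6 and 28.6 CPM and hypoxic libraries at 67.0 and 46.0 CPM. Its change of 0.22 became 1.01 (0.0349) without normoxic library 1, -0.26 without normoxic library 2 and -0.08 without hypoxic library 1.

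In BMDM monocultures hypoxia raised C3ar1 and lowered C5ar1. Called were 2 of 8 members, 1 higher and 1 lower, against 23.9% of all 14806 genes tested, 13.3% higher and 10.6% lower (medians -0.54 and 0.03). C3ar1 rose from 478 and 459 to 759 and 695 CPM (0.63, SE 0.16, edgeR adjusted p 0.0166). C5ar1 fell from 601 and 666 to 433 and 304 CPM (-0.78, SE 0.25, 0.0458). Neither gene's libraries overlapped between oxygen levels, and each call was lost whichever library was left out, with adjusted p from 0.0798 to 0.160 for C3ar1 and from 0.0538 to 0.281 for C5ar1; C3ar1 was also lost without the filter (0.0663). C1qa, C1qb and C1qc had no overlap either, C1qb going from 1881 and 1409 to 1177 and 1002 CPM, but their changes of -0.72, -0.59 and -0.48 were not called (adjusted p 0.179, 0.163 and 0.280). A fit of only these groups called all 3 (0.0107, 0.0104 and 0.0208), a fit without the filter called C1qa and C1qb, and the replicate block C1qa (0.0351).

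BMDM from co-culture, with 3 libraries per group, gave 5 of 8 members called, 1 higher and 4 lower, against 34.8% of all genes tested, 17.5% higher and 17.3% lower (medians -0.67 and 0.03). C1qb went from 2501, 1934 and 2472 CPM to 1758, 860.1 and 1330.1 CPM (-0.81, SE 0.24, edgeR adjusted p 0.0215). C1qc went from 2619, 2002 and 2213 to 1927, 891 and 1236 CPM (-0.75, SE 0.25, 0.0349), and C1qa from 1478, 966 and 1374 to 984, 393 and 741 CPM (-0.85, SE 0.30, 0.0466). Hypoxic library 2 was the lowest for all 3 chains, and only C1qa overlapped between oxygen levels. C5ar1 fell from 465, 448 and 515 to 327, 181 and 249 CPM (-0.92, SE 0.21, 0.00609) and passed in all 12 alternatives. C3ar1 rose from 421, 402 and 362 to 588, 549 and 468 CPM (0.44, SE 0.13, 0.0240).

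Several of these BMDM co-culture calls depended on single libraries. Without normoxic library 1 or 3 the adjusted p of C1qb was 0.0544 or 0.0596. For C1qc it was 0.0916 and 0.0642 without those libraries, 0.0763 without hypoxic library 2 and 0.0894 without hypoxic library 3. For C1qa the same 4 omissions gave 0.116, 0.108, 0.0866 and 0.0799, and C3ar1 was lost without normoxic library 3 (0.0716), without hypoxic library 1 (0.0746) and without the filter (0.0909). A fit of only these groups lost C1qa (0.0804), C1qc (0.0725) and C3ar1 (0.0683), and a mean CPM of at least 5 lost C1qa (0.0504). Cfp, at 599, 994 and 889.8 and then 549, 412 and 688 CPM, was not called (-0.59, SE 0.22, 0.0555), but was called with the replicate number as a block (-0.61, 0.0379), which here pairs the libraries, with DESeq2 (0.0307), without the filter (0.00305), without normoxic library 1 (0.0163) and without hypoxic library 3 (0.0235). The interaction of co-culture and hypoxia called 0 of 8 members in BMDM with edgeR and with DESeq2, 0 of them had an unadjusted p under 0.05, and 0% of all genes were called.

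Myeloid marker sums moved beside these C1q values. They were 7901 and 8780 CPM in normoxic and 8382 and 8556 CPM in hypoxic BMDM monocultures, and 7266 to 8574 against 5705 to 7295 CPM in co-cultures. C1qb as a percentage of the myeloid sum was 21.4 and 17.8 in normoxic against 13.8 and 12.0 in hypoxic monocultures, without overlap. In co-cultures it was 30.8, 22.6 and 34.0 against 24.1, 15.1 and 19.5, lower in hypoxia in all 3 pairs of libraries with the same number, while the groups overlapped. Transcripts specific to GL261 stood at 1.34% to 3.71% of their GL261 level in normoxic and 1.66% to 5.94% in hypoxic BMDM co-cultures. GL261 monocultures had 0 counts of the 3 C1q genes and both receptors, so at monoculture levels the reads expected from GL261 for these 5 genes were 0.

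**Figure D2:**
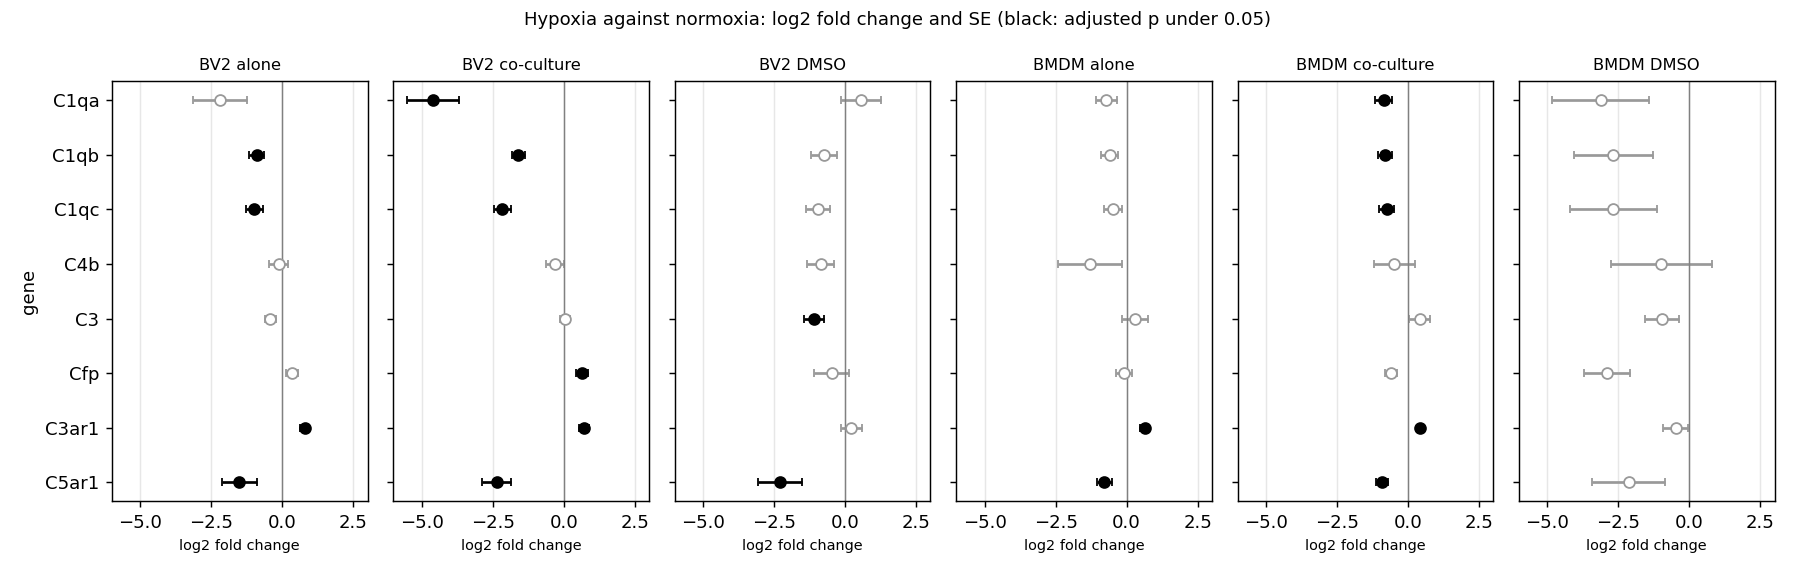
Log2 fold change of hypoxia against normoxia for 8 complement genes in BV2 and BMDM, alone, in co-culture or with DMSO; points are estimates, bars 1 SE, and black points have an edgeR adjusted p under 0.05. C5ar1 lies below 0 in all 6 panels, and in BV2 it passed the filter on low counts through none of the hypoxic libraries shown. C3ar1 lies above 0 in 5, between 0.22 and 0.78, with -0.48 in BMDM given DMSO. There C3ar1 as a percentage of the myeloid sum was higher in hypoxia (7.04 and 8.89 against 4.89 and 6.14).

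BMDM given DMSO showed the widest spread. None of the 8 members was called in hypoxia with edgeR, 1 had an unadjusted p under 0.05, and 0.483% of all 14914 genes tested were called (0.469% higher, 0.0134% lower). DESeq2 called 1 member, Cfp (-2.93, adjusted p 0.00135). The changes of C1qa, C1qb and C1qc were -3.12, -2.67 and -2.67 with SEs of 1.70, 1.38 and 1.54. C1qb stood at 1821 and 1030.4 CPM in normoxia, but at 24.3 CPM in hypoxic library 1 and 423 CPM in hypoxic library 2. As a percentage of the myeloid sum C1qb was 18.9 and 15.8 in normoxia and 0.810 and 9.08 in hypoxia, so that it was low in library 1 on this scale too. C3ar1, at 471 and 401 against 212 and 414 CPM (-0.48, adjusted p 0.503), turned direction on this scale, with 4.89 and 6.14 in normoxia and 7.04 and 8.89 in hypoxia. Cfp went from 1662 and 389 to 78.9 and 195 CPM, and C5ar1 from 458 and 445 to 25.4 and 179.8 CPM. Normoxic library 1 also held the higher C3 (879.9 CPM) and 14.2 CPM of neutrophil markers against 1.51 CPM in library 2. Of the 8 neutrophil genes, 2 were above 1 CPM in normoxic library 1 and 5 had 0 counts. Without the filter on low counts 6 members were called: C1qa, C1qb, C1qc, C5ar1 and Cfp, all lower, and Cfb, which had not passed the filter. The part of the stromal cells in these libraries was not tested.

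**Figure D3:**
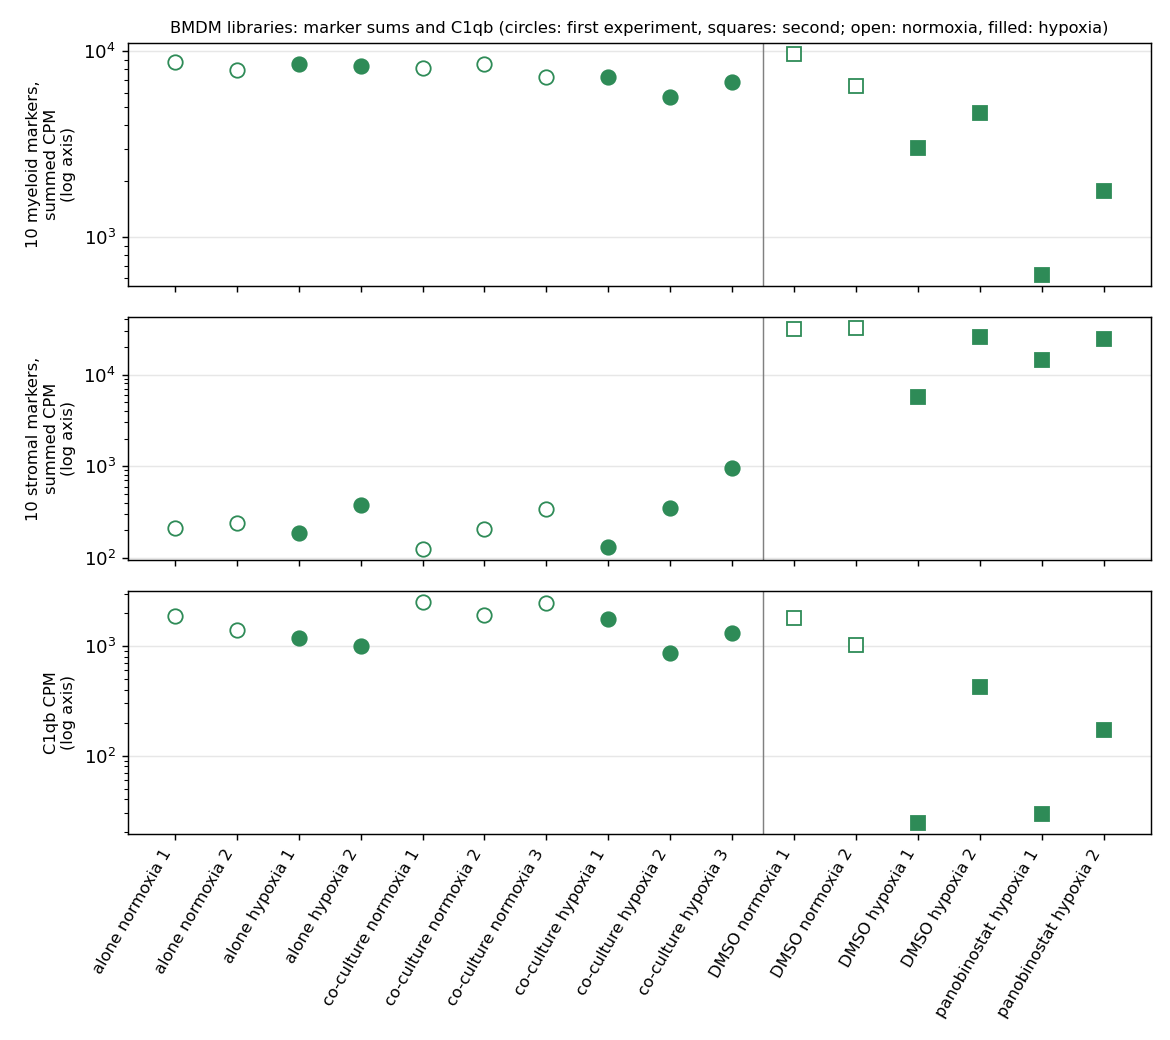
Summed CPM of 10 myeloid and 10 stromal markers and the CPM of C1qb (all TMM-scaled, log axes) in each BMDM library. Circles are the first and squares the second experiment, open for normoxia and filled for hypoxia. Stromal sums are 5740 CPM or more in all 6 libraries of the second experiment and 949 CPM or less in the first, and C1qb is lowest in hypoxic DMSO library 1 at 24.3 CPM.

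The BV2 and BMDM effects in the second experiment were compared as interactions, which called 0 of 8 members for hypoxia with edgeR and with DESeq2 (0.664% of all 15955 genes, 0.458% higher and 0.207% lower). None had an unadjusted p under 0.05. Without hypoxic BMDM library 2 the interactions of C1qa, C1qb and C1qc were 8.51, 5.16 and 5.65 (adjusted p 0.0172, 0.0340 and 0.0325), in place of 3.76, 2.00 and 1.80, and without the filter on low counts those of the 3 chains and of Cfp passed. In the first experiment the hypoxia effects of BV2 and GL261 could be compared for C3, C4b and Cfp, where the interactions of 0.23, 0.44 and 0.58 were not called (adjusted p 0.952, 0.420 and 0.184). That interaction called 0 of 8 members with edgeR and DESeq2, 0 at an unadjusted p under 0.05, and 37.4% of all genes (18.7% in each direction). For the other members GL261 had 0 counts at both oxygen levels, so no difference of effects was defined.

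C3 and C1qb were higher and Cfp was lower in BV2 cells grown beside glioma cells than in BV2 cells alone, at both oxygen levels. In normoxia 4 of 8 members were called, 3 higher and 1 lower, against 14.9% of all genes tested (5.77% higher, 9.14% lower), with a median of 0.90 over the 8 and -0.02 over all. C3, the central component, went from 48.5 and 45.8 CPM alone to 98.5 and 74.4 CPM in co-culture (0.87, SE 0.19, edgeR adjusted p 0.00767). C1qb rose from 4.34 and 3.48 to 13.8 and 10.3 CPM (1.62, SE 0.21, 2.32e-04), and C1qc from 3.83 and 5.21 to 9.61 and 7.58 CPM (0.92, SE 0.27, 0.0312). Cfp fell from 92.0 and 82.4 to 45.7 and 35.0 CPM (-1.12, SE 0.22, 0.00414). In each of the 4 the groups did not overlap. The C1qb and Cfp calls held in all 10 alternatives. That of C3 was lost without co-culture library 1 (0.65, 0.0753) and without monoculture library 2 (0.82, 0.0697). That of C1qc was lost with DESeq2 (0.0719), without co-culture library 1 (0.175) and without either monoculture library (0.166 and 0.0719). C1qa (1.57, 0.0690) and C5ar1 (1.25, 0.0629) passed only in a fit of these groups alone (0.0460 and 0.0454). C1qa reached the filter on low counts through normoxic co-culture libraries alone, so the filter favoured a rise.

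In hypoxia 3 of 8 members were called, 2 higher and 1 lower, against 15.7% of all genes, 8.13% higher and 7.57% lower (medians 0.09 and 0.00). C3 went from 41.2 and 28.6 CPM to 106 and 70.8 CPM, a rise of 1.34 (SE 0.19, edgeR adjusted p 1.71e-04) that held in all 10 alternatives. C1qb rose from 2.36 and 1.81 to 4.12 and 3.79 CPM (0.93, SE 0.26, 0.0247) and Cfp fell from 129.6 and 93.0 to 80.8 and 45.3 CPM (-0.82, SE 0.21, 0.0145). The libraries did not overlap in any of these genes. The C1qb call was lost with DESeq2 (0.0558) and without any single library (0.0505 to 0.188). That of Cfp was lost with DESeq2 (0.142), without co-culture library 2 (-0.52, 0.0951) and without monoculture library 1 (-0.63, 0.0932). C3ar1 was not called (-0.19, 0.521), with -0.65 (0.00664) without co-culture library 1 and 0.07 without library 2.

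Carry-over of partner RNA was measured beside these rises. GL261-specific transcripts stood at 0.952% and 0.565% of their GL261 level in normoxic and 2.07% and 2.33% in hypoxic BV2 co-cultures. At these shares and at GL261 monoculture levels, GL261 cells would account for at most 0.00783% of the C3 reads in any BV2 co-culture library. For C1qb they would account for none. GL261 co-cultures held 7 counts of C1qb, all in normoxic library 1, of which BV2 carry-over at monoculture levels would give 7.93%. A change of these genes in co-cultured GL261 cells is not covered by the shares. Macrophages gave no call: co-culture with GL261 changed 0 of 8 members in BMDM in normoxia (1.64% of all genes, 1.57% higher and 0.0675% lower; 0 members at an unadjusted p under 0.05 and 0 with DESeq2) and 0 in hypoxia (7.11%, 4.06% higher and 3.05% lower; 3 members at an unadjusted p under 0.05). In hypoxia DESeq2 called C3ar1, at -0.42 (adjusted p 0.0361), against -0.44 (0.0920) with edgeR. C3 stood at 138 and 111 CPM in normoxic monocultures and 153, 299 and 129 CPM in co-cultures, and at 183 and 123 against 133, 375 and 269.7 CPM in hypoxia, with overlap in both. Normoxic co-culture library 2 was the highest of its group in C3 and in Cfp (994 CPM). It held 18.7 CPM of neutrophil markers against 0.247 and 0.868 CPM in the others. Of the 8 neutrophil genes, 1 was above 1 CPM in that library and 5 had 0 counts. The part of neutrophils in these levels was not tested. The C3 changes of 0.64 and 0.76 passed only without the filter on low counts (0.0427 and 0.00106). Without hypoxic co-culture library 1, C5ar1 (-0.76, 0.0395) and C4b (3.03, 0.0260) passed in hypoxia; C4b there had 1, 11 and 33 counts per library. Carry-over at the C4b level of GL261 monocultures would give 9.61% to 78.4% of these C4b reads, and at the level of GL261 cells co-cultured with BV2 34.9% to 284%.

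C4b was the member that rose in the glioma cells themselves. Only C3, C4b and Cfp passed the filter in GL261. In normoxia 1 of the 3 was called beside BV2 cells, against 0.514% of all 15189 genes (0.323% higher, 0.191% lower): C4b went from 6.24 and 6.51 CPM to 18.1 and 17.6 CPM (1.49, SE 0.21, edgeR adjusted p 0.0119). In hypoxia it was again 1 of 3, against 1.39% of all genes (0.889% higher, 0.5% lower), with C4b going from 4.54 and 4.66 to 20.6 and 14.3 CPM (1.92, SE 0.21, 0.00172). The co-culture libraries lay above the monocultures at both oxygen levels. BV2 carry-over at 0.915% and 0.627% in normoxia and 0.267% and 0.214% in hypoxia would give at most 0.0816% of these C4b reads. Of the 75-base words of C4b, 22.67% also occur in its neighbouring copy C4a, so the counting could split reads between them, and with the counts of C4b and C4a summed the rises were 1.13 (0.0313) and 1.39 (0.00734). The normoxic call was lost without any single library (adjusted p 0.0840 to 0.138, rises of 1.46 to 1.53) and the hypoxic call in a fit of only these groups (0.0567).

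Cfp in GL261 co-cultures fell with hypoxia, from 16.2 and 15.7 to 9.15 and 9.86 CPM (-0.75, SE 0.21, edgeR adjusted p 0.0107), the only 1 of the 3 members called there (52.4% of all genes called, 26.8% higher and 25.6% lower). It was lost without either normoxic library (0.0562 and 0.0553) and without hypoxic library 1 (0.0548). In GL261 monocultures none of the 3 was called with edgeR or DESeq2 (44.6% of all genes, 23.2% higher and 21.4% lower; 1 member at an unadjusted p under 0.05), Cfp standing at 18.1 and 19.0 against 13.4 and 20.7 CPM. In hypoxia Cfp was lower beside BV2 cells by 0.84, which was not called (0.0802) and passed with DESeq2 (0.0258), with the replicate block (0.0268), without the filter (0.00370) and without hypoxic monoculture library 1 (-1.13, 0.0112). The interaction of co-culture and hypoxia in GL261 called 0 of 3 members with edgeR and DESeq2, 0 at an unadjusted p under 0.05, and 0% of all genes. C3 and C3ar1 in GL261 co-cultures were low, with at most 27 counts of C3 and 8 of C3ar1 in a library. BV2 carry-over at monoculture levels would give 8.51% to 60.3% of C3 and, where there were counts, 61.8% to 102% of C3ar1. Mean C3 in BV2 was higher in co-culture than alone, at 86.4 against 47.1 CPM in normoxia and 88.6 against 34.9 CPM in hypoxia. At the co-culture level the C3 shares would be larger.

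**Figure D4:**
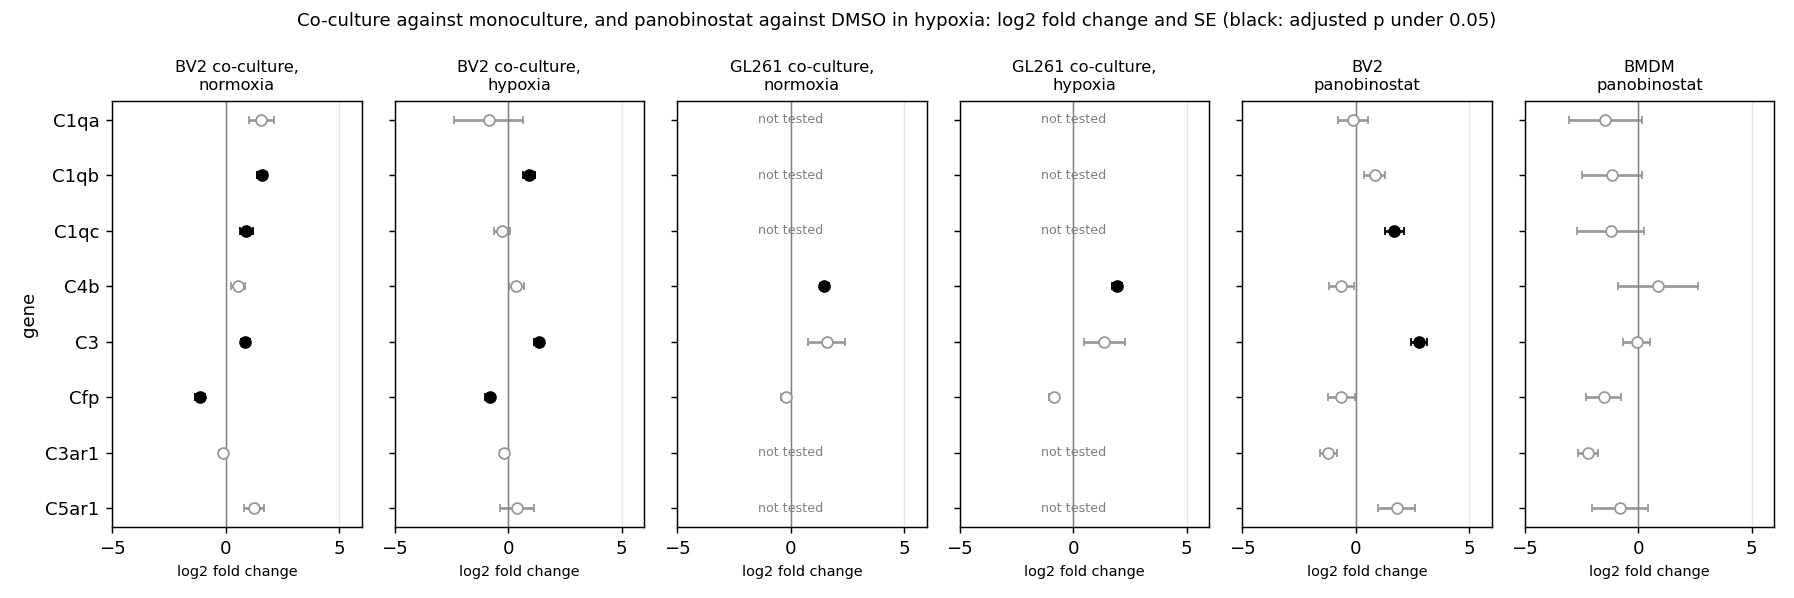
Log2 fold change of co-culture against monoculture in BV2 and GL261, and of panobinostat against DMSO in hypoxic BV2 and BMDM, for 8 complement genes; points are estimates, bars 1 SE, black points have an edgeR adjusted p under 0.05, and genes under the filter on low counts are marked as not tested. C3 lies at 0.87, 1.34 and 2.79 in the BV2 panels and at -0.08 in BMDM given panobinostat.

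Panobinostat raised C3 in hypoxic BV2 cells. C3 stood at 18.1 and 35.3 CPM with DMSO and at 183 and 188 CPM with panobinostat, a 6.93-fold rise (log2 2.79, SE 0.35, edgeR adjusted p 0.00247) that held in all 10 alternatives, between 2.38 and 3.35. Both treated libraries also lay above the normoxic DMSO libraries at 41.4 and 72.7 CPM. Called were 2 of 8 members, both higher, against 14.6% of all genes tested, 7.21% higher and 7.39% lower (medians 0.36 and -0.01). The other was C1qc, from 1.18 and 1.12 to 3.38 and 4.11 CPM (1.70, SE 0.41, 0.0254), on 15 to 57 counts per library and lost without any single library (0.0797 to 0.164). C1qb, at 1.89 and 1.42 and then 3.38 and 2.52 CPM, was not called (0.83, 0.240). C3ar1 stood at 67.0 and 46.0 CPM with DMSO and 27.5 and 21.6 CPM with panobinostat, without overlap. Its change of -1.20 (SE 0.37, 0.0569) passed with DESeq2 (0.0106), with the replicate block (1.57e-04), without the filter (7.50e-05), in a fit of only these groups (0.0152) and without DMSO library 2 (-1.46, 0.0269). Myeloid markers summed to 2308 and 2806 CPM with DMSO and to 1444 and 1764 CPM with panobinostat.

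In BMDM panobinostat gave 0 calls among 8 members and 0% of all genes with edgeR, with 1 member at an unadjusted p under 0.05. That member was C3ar1, at 212 and 414 CPM with DMSO and 49.8 and 86.0 CPM with panobinostat (-2.20, SE 0.45, adjusted p 0.0666). It was called with DESeq2 (2.07e-04), with the replicate block (0.0271) and without the filter (2.18e-06). Myeloid markers were lower too, at 3007 and 4657 CPM with DMSO and 628.4 and 1778 CPM with panobinostat. As a percentage of that sum C3ar1 was 7.04 and 8.89 with DMSO and 7.92 and 4.84 with panobinostat, and the groups overlapped. C3 was not called, at 366 and 244 CPM with DMSO and 190.0 and 388 CPM with panobinostat (-0.08, SE 0.59). As a percentage of the myeloid sum it was 12.2 and 5.24 with DMSO and 30.2 and 21.8 with panobinostat, higher without overlap as in BV2, so its direction depends on the scale. On the CPM scale the test of the difference between cell types gave 2.87 (SE 0.76), which did not pass with edgeR (adjusted p 0.233) and passed with DESeq2 (0.0262) and without the filter (8.35e-07). Of all genes, 0.0251% were called for this interaction (0.0188% higher, 0.00627% lower), and 0 of 8 members, with 1 at an unadjusted p under 0.05 and 1 with DESeq2. The C1q chains in BMDM changed sign with the library left out: C1qa went from -1.46 to 3.34 and C1qc from -1.22 to 2.67 without hypoxic DMSO library 2.

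Cfb, factor B of the alternative pathway, was under the filter in every cell type. It had 0 counts in all BV2 libraries, at most 1 in GL261 and at most 22 in BMDM, in normoxic DMSO library 1. On the same strand it overlaps the gene Gm20547, which shares 69.86% of the 75-base words of Cfb and had 0 counts in all 38 libraries. How reads in overlapping genes were counted is not given in the sources used here, so the low Cfb counts may not be its level.

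Among the 36 other complement genes, 14 passed the filter in BV2, 14 in GL261 and 19 in BMDM of the first experiment. In hypoxic BV2 monocultures 6 of the 14 rose and 3 fell, and in co-culture 6 rose and 4 fell, shares close to the 61.9% and 67.3% of all genes called. Colec12, a scavenger receptor with a collectin domain, went from 290.7 to 1372 CPM in monoculture (2.24, SE 0.12, edgeR adjusted p 4.20e-10). The complement receptor subunit Itgam rose by 1.69 and 1.64 in monoculture and co-culture, and the terminal-pathway inhibitor Cd59a by 1.33 and 1.29. C1ra, the protease that partners C1q, fell by 1.87 and 1.60 in these comparisons and by 2.45 with DMSO, where Colec12 rose by 1.97. The regulator Cr1l fell by 0.59 and 0.31, and Itgb2, the partner chain of Itgam, by 0.80 in co-culture. With DMSO 1 of 14 rose and 1 fell, those named, against 37.5% of all genes called.

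In GL261 hypoxia raised 1 and lowered 2 of the 14 alone, and raised 2 and lowered 2 in co-culture, against 44.6% and 52.4% of all genes called. The inhibitor clusterin, Clu, fell by 0.82 in both, from 97.5 to 55.0 CPM alone. Itgb2 rose by 1.66 and 1.24, to means of 2.98 and 2.77 CPM, Cr2 by 0.75 in co-culture, and Cr1l fell by 0.35 alone. In BMDM none of 19 was called alone with edgeR (23.9% of all genes), 1 having an unadjusted p under 0.05, and 3 fell in co-culture (34.8% of all genes called), among them C1ra by 1.46 and Itgb2 by 0.80. With panobinostat in BV2 cells 3 of 14 rose and 2 fell, against 14.6% of all genes called. C1s1, the second protease of the C1 complex, went from 0.189 to 6.80 CPM (5.09, SE 0.59, 0.00196), C1ra rose by 2.51 and Clu by 1.19, from 97.6 to 222 CPM, while Colec12 fell by 1.41 and Itgb2 by 1.01. In BMDM with DMSO or panobinostat 0 of 18 were called with edgeR, and 6 and 4 had an unadjusted p under 0.05.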

How the data were processed

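The authors deposited 3 tables of unnormalised read counts, 38 libraries in all, with Ensembl identifiers as rows. Per the labels' protocols, libraries came from a stranded KAPA kit with poly(A) selection and were read as pairs of 151 bases. The submitters' processing notes name Trimmomatic 0.36, STAR 2.6, HTSeq 0.9.1, SAMtools and deepTools, Picard 2.17.1 for the BV2 and GL261 libraries, and the build mm10. Their order, the annotation and the use of strand in counting are not given in the sources used here. Totals of 9634700 to 27238900 counts set the precision. No molecular identifiers are stated, so floors and intervals cover counting error only.

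Each cell type within a table was fitted with edgeR 4.0.16 (R 4.3.3, quasi-likelihood test, TMM factors of 0.887 to 1.13, filterByExpr with a minimum count of 10 and total of 15). Interactions and differences between cell types came from joint fits within a table, 24 comparisons in all. The SE is the log2 change divided by the root of F. The fits were run on simulated counts with known fold changes. That run checked the median estimated change, and not how reliable calls at low counts are. The common coefficient of biological variation was, for the first experiment, 0.0958 (BV2), 0.133 (GL261) and 0.222 (BMDM). For the second it was 0.205 (BV2) and 0.381 (BMDM). Partner shares are medians, over genes at 20 CPM or more in the partner and 100-fold above the cell's own monocultures, of their plain CPM relative to the partner. Positions and exon lengths are from GENCODE M21, and levels across tables were normalised separately. Chi-square per degree of freedom between replicates, 22 pairs, was 6.70 to 155.5, beyond sampling noise, so each library counts as 1.

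All 9 members are named. Of the 36 other genes, up to 3 called genes per direction with the largest change and a mean log2 CPM of 1 or more are named in each hypoxia and panobinostat comparison, and the 3 genes nearest in pattern to C3 and to C1q. The result of 1 gene under this rule is not reported here. The members and lists were chosen with earlier results of these data known. The stromal list and the sum of C4a and C4b were added after seeing the data. Of the marker lists, neutrophil genes summed to at most 18.7 CPM, lymphocyte genes to at most 1.04 CPM and mast cell and basophil genes to at most 34.6 CPM. Alternatives were DESeq2 1.42.0 and its size factors, no filter, a mean CPM of 5, the replicate block, fits of only the groups compared, and leaving out each library.

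Replicate numbers come from titles. Deviations of same-numbered libraries from their group means correlated at 0.455, 0.244 and 0.407 between the normoxic and hypoxic BMDM co-cultures, so the numbers were taken to pair those libraries. The GL261 share also rose with the replicate number, at 1.34%, 2.16% and 3.71% in normoxic and 1.66%, 3.19% and 5.94% in hypoxic BMDM co-cultures. Its part in these correlations was not tested. The main fits did not use the pairing. With the replicate block, 6 members in place of 5 were called for hypoxia in BMDM co-culture. The groups of 2 do not decide whether same-numbered libraries are pairs.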

Additional observations from a re-analysis of the deposited data

How the results depend on the processing

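Of 848 values recomputed for the 82 pairs of a member and a comparison that were called in the report (46) or in at least 1 alternative, 698 kept direction and side of the threshold, 76 lost a call, 66 gained one and 8 changed sign. All 8 sign changes came from leaving out a library. Over the libraries left out, C3ar1 beside GL261 in hypoxic BV2 ran from -0.65 to 0.068 and C3ar1 with hypoxia in BV2 with DMSO from -0.26 to 1.01, with -0.08 without hypoxic library 1. With panobinostat in BMDM C1qa ran from -3.30 to 3.34 and C1qc from -3.27 to 2.67. In the panobinostat interaction C1qb ran from -1.36 to 3.62 and C1qc from -1.12 to 4.83, and C4b between BV2 and BMDM from -2.32 to 1.89. None of these was called in the report, and the cause was not tested. Counts of called members are given below in place of the counts in the report.

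With a mean CPM of at least 5, which tests fewer genes, hypoxia gave 2 in BV2 monoculture, 3 in BV2 co-culture and 1 in BV2 with DMSO, panobinostat gave 1 in BV2, and BV2 against GL261 gave 4. With DESeq2 co-culture gave 1 in hypoxic BV2, 2 in hypoxic GL261 and 1 in hypoxic BMDM, hypoxia gave 1 in BV2 and 1 in BMDM with DMSO, panobinostat gave 1 in BMDM and its interaction 1. Without a filter beyond 1 count, the interaction of co-culture and hypoxia in BV2 gave 1, co-culture gave 2 in hypoxic GL261, 1 in normoxic and 2 in hypoxic BMDM, hypoxia gave 6 in BMDM with DMSO and its interaction 4, and panobinostat gave 4 in BMDM and its interaction 4. In fits of only the groups compared, co-culture in hypoxic GL261 gave 0, and hypoxia gave 5 in BMDM monoculture, 2 in BMDM co-culture and 0 in BV2 with DMSO; co-culture in normoxic BV2 gave 6.

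With the replicate block, co-culture in hypoxic GL261 gave 2 and panobinostat in BMDM gave 1 called member; the block moved no other count by more than 1.5 times. Correlations of same-numbered libraries ran from -0.0807 to 0.175 in BV2, 0.0433 to 0.369 in GL261 and -0.00185 to 0.455 in BMDM, and from 0.154 to 0.389 and 0.336 to 0.593 in BV2 and BMDM of the second experiment.

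Leaving out each library in turn, hypoxia gave 2 to 4 in BV2 monoculture, 4 to 6 in BV2 co-culture, 0 to 2 in BV2 with DMSO, 0 to 1 in GL261 co-culture, 0 in BMDM monoculture and 1 to 5 in BMDM co-culture. Co-culture gave 2 to 4 in normoxic and 1 to 3 in hypoxic BV2, 0 in normoxic and 1 to 2 in hypoxic GL261, and 0 to 2 in hypoxic BMDM. The interaction of co-culture and hypoxia in BV2 gave 0 to 1, the hypoxia interaction of BV2 and BMDM 0 to 3, and panobinostat in BV2 1 to 2. Where this left 1 library in a group, that library was assumed to vary like the others. With partner genes at 300-fold the mean share of BV2 transcripts in hypoxic GL261 co-cultures was 0.200% in place of 0.241%. The low counts of C1qa and C5ar1 in BV2 limit their fold changes.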
